A study of Mus musculus with 6 samples.

Results

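The genes described here encode sensors of foreign or misplaced nucleic acids together with the proteins that several of these sensors cannot work without. They are Ifih1, Ddx58, Dhx58, Mavs, Zbp1, Aim2, Tlr3, Tlr7, Tlr9 and Unc93b1. They were chosen by name, and all 10 were found among the 55335 mouse gene identifiers in the deposited table. RNA came from RAW 264.7, a mouse macrophage line labelled as wild type, and every library received lipopolysaccharide (LPS, a bacterial product sensed by TLR4) at 200 ng/ml for 8 h. The LPS group (3 libraries) received nothing else. The LPS plus ultrasound group (3 libraries) was also exposed for 10 min to pulsed ultrasound of 50 mW/cm² at 1 MHz, with a duty cycle of 20%, pulses of 200 µs and a repetition frequency of 1 kHz. No untreated cells were analysed here, and no value below shows how LPS changed a sensor gene. A single cell line was used, and nothing in the labels tells whether the libraries of a group were separate cultures, so p-values cover only differences among these libraries, and that spread may be technical.

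The innate sensors of nucleic acids work in separate compartments. RIG-I (encoded by Ddx58), MDA5 (Ifih1) and LGP2 (Dhx58) are RNA helicases of the cytosol, and RIG-I and MDA5 signal through MAVS on mitochondria to the kinases that start type I interferon transcription. AIM2 binds double-stranded DNA and ZBP1 binds nucleic acids in the left-handed Z form, while TLR3, TLR7 and TLR9 read RNA or DNA inside endosomes after UNC93B1 has carried them there. In macrophages many of these genes are themselves induced by interferon.

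Short stretches around the starts of interferon-linked genes are shown because a motif that covers the core of the interferon-stimulated response element occurs in some of the sensor genes and not in others. The motif is 2 copies of GAAA with 2 bases of any kind between them, and it was searched on both strands (TTTC on the other strand, overlapping matches counted separately) in RefSeq windows of 300 bases, from 250 before to 50 after each start, on GRCm38.p6. Of the sensor genes, Ifih1, Ddx58, Mavs, Aim2, Tlr3 and Tlr9 were in the table and Dhx58, Zbp1, Tlr7 and Unc93b1 were not. Ifih1 and Ddx58 each held 1 match and the other 4 held none, against 3.45% of all 32544 windows with at least 1. In the stretches below, capitals mark the motif, and each sequence is read along the strand of its gene. Ifit1 and Isg15, interferon-induced genes that appear again at the end of the results, are shown for comparison.
Ifih1: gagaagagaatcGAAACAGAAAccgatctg
Ddx58: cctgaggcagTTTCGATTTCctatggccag
Ifit1: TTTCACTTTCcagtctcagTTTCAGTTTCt
Isg15: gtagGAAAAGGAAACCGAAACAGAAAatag

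The Ifih1 stretch lies at chr2:62646206-62646235 on the minus strand, with its match at positions 33 to 42 after the start. The Ddx58 stretch lies at chr4:40239804-40239833 on the minus strand, with the match at positions 3 to 12. Those of Ifit1 (chr19:34640785-34640814, plus strand) and Isg15 (chr4:156200871-156200900, minus strand) lie before the start, the first match beginning at position -104 in Ifit1 and at -78 in Isg15. Isg15 held 3 overlapping matches and Ifit1 held 2. A match is a run of letters and was not tested as a binding site.

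Values are FPKM, a fragment count divided by transcript length and by the library's mapped fragments, so levels can be compared between genes. On this scale the sensor genes spanned a wide range in every library. Unc93b1 was the highest, at 108 to 146 FPKM over the 6 libraries, and did not overlap Aim2, at 49.6 to 99.2. Aim2 was above Dhx58 in 6 of 6 libraries although their ranges met (Dhx58, 34.0 to 53.3 FPKM). Dhx58 did not overlap the next 4 genes, Mavs, Ifih1, Tlr9 and Ddx58, whose means over all libraries were 18.6, 17.5, 16.5 and 16.2 FPKM and whose ranges overlapped from each to the next. Tlr7 followed with a mean of 12.3 FPKM, and Zbp1 (5.95) and Tlr3 (4.15) were the lowest and were not ordered, with Zbp1 above Tlr3 in 3 of 6 libraries. All 10 genes therefore passed the filter, set at a mean of 1 FPKM.

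The libraries as a whole carried a macrophage profile. Of 11 macrophage markers 10 reached a mean of 1 FPKM, led by Fcer1g. The summed level of the list was 2541 to 2795 FPKM with LPS and 2609 to 2869 with ultrasound. Fcer1g and Cd68 made up much of that sum, with means of 899 and 656.5 FPKM. Single markers differed in both directions, with log2 differences of -0.62 for Adgre1, -0.65 for Itgam and 0.52 for Csf1r. None of these 3 passed (limma with Benjamini-Hochberg adjusted p = 0.27, 0.37 and 0.46). None of 8 skeletal muscle and 6 fibroblast markers reached a mean of 1 FPKM. The sums of the FPKM ran from 278871 to 292200 per library. In genes with 1 annotated transcript the lowest values gathered at a step. If that step is a single fragment, the libraries held 25200000 to 29300000 fragments, and at that depth the Tlr9 values would rest on 1313 to 1755 fragments. LPS library 2 stood apart from the others on the first principal component (28.8, against -17.7 to 2.03). The LPS libraries were at 1.73, 28.8 and 2.03 and the ultrasound libraries at -13.9, -0.957 and -17.7. Every ultrasound library lay below every LPS library, and library 2 was the highest of both groups, so this component follows both group and library number. A number of values are also given without LPS library 2, which keeps ultrasound library 2, or without both libraries numbered 2.

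Ultrasound was followed by lower levels of Ifih1, Zbp1 and Unc93b1 in every library, and by smaller or mixed differences in the other sensor genes. None of the 10 passed the threshold of 0.05 across all genes (limma with Benjamini-Hochberg adjusted p = 0.22 to 0.87), where 0.0177% of the 11270 genes tested were called in either direction. At an unadjusted limma p below 0.05, 3 of the 10 were lower (Ifih1, Zbp1 and Unc93b1) and 0 higher, against 9.16% of all genes lower. Without LPS library 2 these were 2 of the 10, Zbp1 and Unc93b1, against 6.25% of all genes, and without both libraries numbered 2 they were 3, Ifih1, Dhx58 and Zbp1, against 8.95%. For Ifih1, Zbp1 and Unc93b1, 3 of the 10, the ultrasound libraries did not overlap the LPS libraries, against 13.4% of all genes tested with all ultrasound libraries lower. Comparing same-numbered libraries, 7 of 10 were lower in 3 of 3 pairs, against 30.9% of all genes. The numbers come from the library titles and are taken as pairs because same-numbered libraries deviated together across genes (correlations of 0.18, 0.44 and 0.41 for numbers 1 to 3). No label states a pairing, and it was judged from the same values that are then compared by pair. The median difference of log2(FPKM + 1), ultrasound minus LPS, was -0.21 over the 10 genes and -0.02 over all genes tested. Without LPS library 2 these were -0.17 and -0.02, and without both libraries numbered 2, -0.22 and -0.02. Leaving out ultrasound library 3 brought the median of the 10 genes to -0.11.

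**Figure D1:**
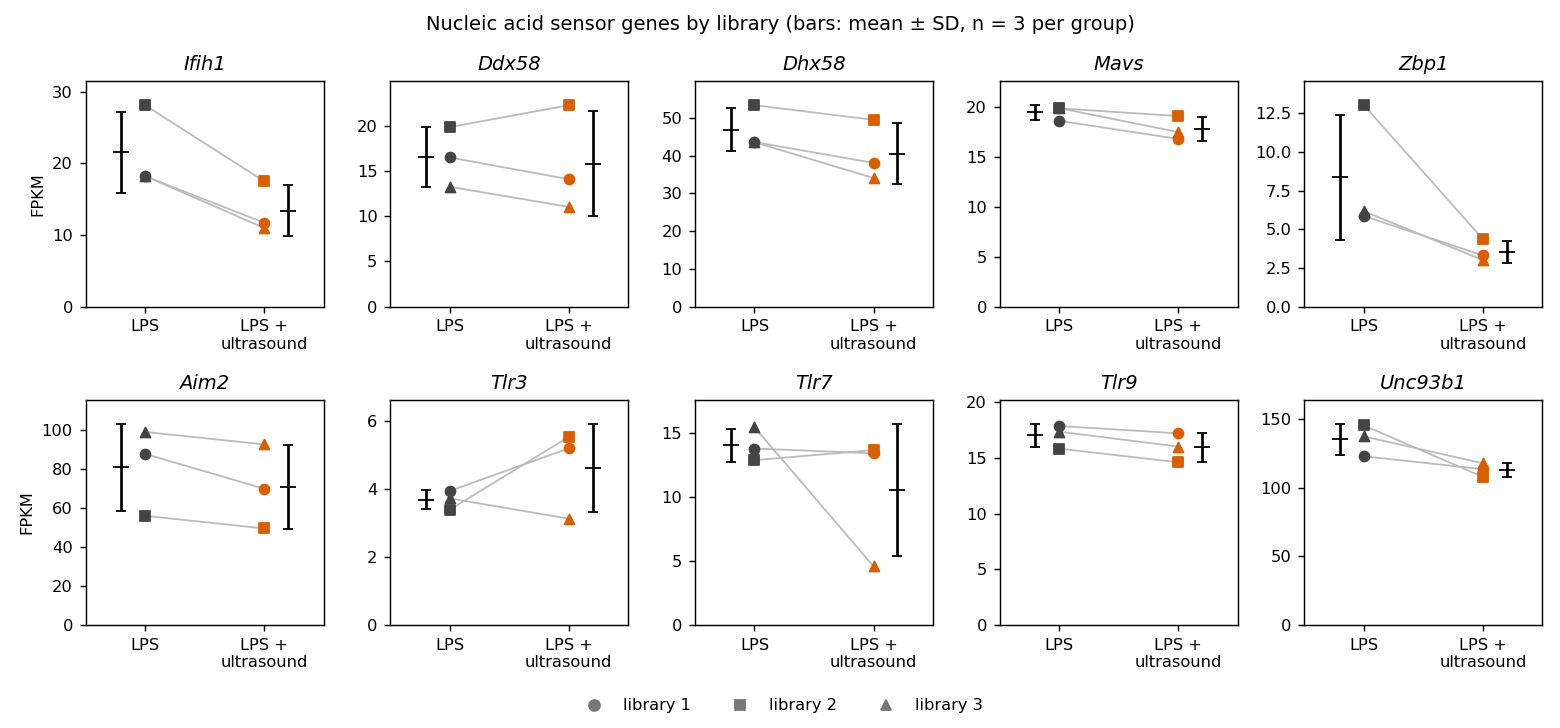
FPKM of the 10 sensor genes in each library, with LPS in grey, LPS plus ultrasound in orange, a marker shape for each library number and lines joining same-numbered libraries; bars beside the points are mean ± SD (n = 3) and every axis starts at 0. The groups are apart for Ifih1, Zbp1 and Unc93b1, and the single low Tlr7 value is ultrasound library 3 at 4.57 FPKM.

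Among the RIG-I-like receptors, Ifih1 differed most. MDA5, its product, binds long double-stranded RNA. Ifih1 was at 18.2, 28.2 and 18.3 FPKM in LPS libraries 1 to 3 and at 11.7, 17.5 and 11.0 FPKM in ultrasound libraries 1 to 3. Every ultrasound library lay below every LPS library, and library 2 was the highest of both groups. The group means were 21.5 ± 5.72 and 13.4 ± 3.58 FPKM (SD, n = 3), a log2 difference of -0.65 ± 0.22 (standard error, limma with Benjamini-Hochberg adjusted p = 0.26). The 3 same-numbered pairs gave nearly equal differences of -0.60, -0.65 and -0.68 on the log2(FPKM + 1) scale.

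With the replicate number as a block Ifih1 fell past the threshold (limma with Benjamini-Hochberg adjusted p = 0.047), as the only one of the 10, where 0.0799% of all genes were called lower. The other 9 had adjusted p = 0.066 to 0.51 in that fit. The call did not hold with 2 pairs: leaving out the libraries numbered 1, 2 or 3 gave limma adjusted p = 0.053, 0.12 and 0.26 with the block, at log2 differences of -0.67, -0.64 and -0.63. Without LPS library 2 alone and with no block the difference was -0.45.

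Ddx58 had overlapping groups. RIG-I, its product, recognises short RNA with a 5′ triphosphate. Its level was 16.5, 19.8 and 13.2 FPKM in LPS libraries 1 to 3 and 14.1, 22.3 and 11.0 FPKM in ultrasound libraries 1 to 3. The highest library of each group was again library 2. The log2 difference was -0.10 ± 0.25 (limma with Benjamini-Hochberg adjusted p = 0.87). It turned to 0.03 without LPS library 2 and to 0.11 without ultrasound library 3, and it was -0.23 without both libraries numbered 2. Dhx58 encodes LGP2, which lacks the signalling domains of the other 2 helicases and modulates them. It was at 43.6, 53.3 and 43.5 FPKM with LPS and at 38.1, 49.5 and 34.0 FPKM with ultrasound. The ultrasound library was the lower in 3 of 3 pairs, by -0.19, -0.11 and -0.35 on the log2 scale, while the groups overlapped (-0.21 ± 0.15, adjusted p = 0.50 by limma with Benjamini-Hochberg adjustment). The difference was -0.12 without LPS library 2, -0.10 without ultrasound library 3 and -0.36 without ultrasound library 2. In the GENCODE M21 annotation 141 of the 3272 exonic bases of Dhx58 are shared with the antisense gene Dhx58os, which was listed at 0.211 to 0.459 FPKM. The strand setting of the counting is not given in the sources used here, so reads of Dhx58 and Dhx58os in those bases cannot be told apart.

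Mavs, the shared adaptor, differed little. It was at 18.6, 19.9 and 19.9 FPKM in the LPS libraries and at 16.8, 19.1 and 17.5 FPKM in the ultrasound libraries. The groups overlapped although each ultrasound library was below its same-numbered LPS library, and the log2 difference was -0.12 ± 0.08 (limma with Benjamini-Hochberg adjusted p = 0.47).

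A ratio of 2 genes within a library does not depend on how the library was scaled, and such ratios were computed for the 3 helicase genes. These ratios were chosen after the values had been seen. The log2 ratio of Ifih1 to Ddx58 was 0.15, 0.51 and 0.46 in LPS libraries 1 to 3 and -0.27, -0.35 and -0.0029 in ultrasound libraries 1 to 3. Ifih1 was thus the higher of the pair in every LPS library and the lower in every ultrasound library, although in library 3 the levels were nearly equal. The mean log2 ratio was 0.37 ± 0.20 with LPS and -0.21 ± 0.18 with ultrasound (SD, n = 3; two-sided exact permutation p = 0.10, the smallest that 3 against 3 libraries allow; 0.15 adjusted over 3 ratios). The log2 ratio of Ifih1 to Dhx58 also separated the groups, at -1.14 ± 0.19 and -1.61 ± 0.10 (SD, n = 3; exact permutation p = 0.10, 0.15 adjusted). That of Ddx58 to Dhx58 did not, at -1.52 ± 0.17 and -1.41 ± 0.24 (SD, n = 3; exact permutation p = 0.60, 0.60 adjusted).

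**Figure D2:**
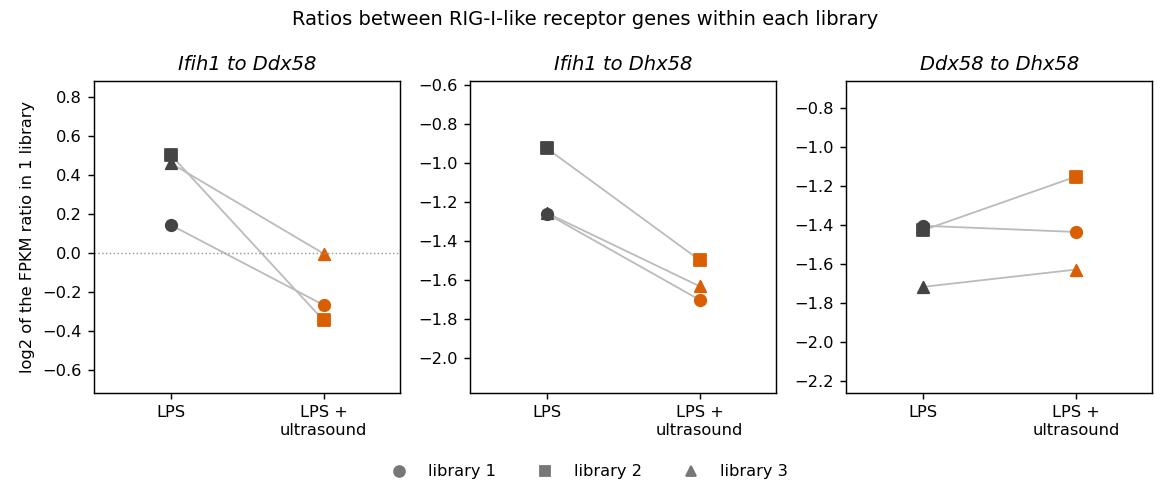
Log2 of the FPKM ratio between 2 RIG-I-like receptor genes in each library, for LPS (grey) and LPS plus ultrasound (orange), with lines joining same-numbered libraries; the panels have the same span but different centres, and the dotted line marks equal levels. The groups are apart for Ifih1 to Ddx58 and for Ifih1 to Dhx58 and overlap for Ddx58 to Dhx58.

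Zbp1 had the largest difference of the 10 genes in the fit of all 6 libraries. ZBP1 can start necroptosis and apoptosis through the RIPK kinases. It was at 5.85, 13.0 and 6.16 FPKM in LPS libraries 1 to 3 and at 3.30, 4.36 and 3.00 FPKM in ultrasound libraries 1 to 3. All ultrasound libraries lay below all LPS libraries, and LPS library 2 was the highest of all 6. The pairs differed by -0.67, -1.39 and -0.84 on the log2 scale. The log2 difference was -0.97 ± 0.28 (adjusted p = 0.22 in limma after Benjamini-Hochberg adjustment), and leaving out LPS library 2 gave -0.63 and leaving out both libraries numbered 2 gave -0.76, where Tlr7 was at -0.80.

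Aim2, the cytosolic DNA sensor gene, differed more between library numbers than between groups. It was at 88.0, 56.1 and 99.2 FPKM in LPS libraries 1 to 3 and at 70.0, 49.6 and 92.8 FPKM in ultrasound libraries 1 to 3. The groups overlapped widely, library 2 was the lowest and library 3 the highest of each group, and each ultrasound library lay below its partner, by -0.32, -0.17 and -0.10 on the log2 scale. The log2 difference was -0.20 ± 0.27 (limma with Benjamini-Hochberg adjusted p = 0.74), became -0.44 without LPS library 2 and turned to 0.03 without ultrasound library 2. Pycard, which encodes ASC, the adaptor through which AIM2 recruits caspase-1, was listed at 0 in the 3 LPS libraries and at 0.048, 0.010 and 0.019 FPKM in the ultrasound libraries. It is named here after its values were seen, because the abundant sensor stood beside an adaptor near 0.

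In the endosome, the chaperone gene Unc93b1 separated the groups and Tlr3, Tlr7 and Tlr9 did not. Unc93b1 was at 123, 146 and 138 FPKM in LPS libraries 1 to 3 and at 114, 108 and 118 FPKM in ultrasound libraries 1 to 3. The lowest LPS library lay above the highest ultrasound library, with group means of 135 ± 11.4 and 113 ± 4.99 FPKM (SD, n = 3). The log2 difference was -0.25 ± 0.08 (adjusted p = 0.25 in limma after Benjamini-Hochberg adjustment). Leaving out LPS library 2 gave -0.20, and leaving out both libraries numbered 2 gave -0.17.

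Tlr9, the receptor for DNA with unmethylated CpG, was nearly level, at 17.9, 15.8 and 17.3 FPKM with LPS and at 17.2, 14.6 and 16.0 FPKM with ultrasound. Each ultrasound library was slightly below its partner and the groups overlapped (-0.09 ± 0.09, adjusted p = 0.64 by limma with Benjamini-Hochberg adjustment). Leaving out 1 library gave -0.14, without LPS library 2 or ultrasound library 1, to -0.03, without ultrasound library 2. Tlr7, a receptor for single-stranded RNA, was at 13.8, 12.9 and 15.4 FPKM with LPS and at 13.4, 13.6 and 4.57 FPKM with ultrasound. Its group difference of -0.51 ± 0.36 (limma with Benjamini-Hochberg adjusted p = 0.51) rested on ultrasound library 3, and without that library it was -0.05, and without both libraries numbered 2 it was -0.80.

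Tlr3, the endosomal receptor for double-stranded RNA, was the only one of the 10 with a higher mean after ultrasound. It was at 3.94, 3.39 and 3.72 FPKM in LPS libraries 1 to 3 and at 5.19, 5.53 and 3.13 FPKM in ultrasound libraries 1 to 3. Libraries 1 and 2 were higher with ultrasound and library 3 was the lowest of all 6, so the groups overlapped. The log2 difference was 0.23 ± 0.18 (limma with Benjamini-Hochberg adjusted p = 0.54), with 0.44 when ultrasound library 3 was left out and 0.07 when both libraries numbered 2 were. The antisense gene Gm45542 shares 381 of the 5207 exonic bases of Tlr3 and was listed at 0.096 to 0.126 FPKM with LPS and 0.160 to 0.366 with ultrasound. Its part in the Tlr3 values was not tested. Tlr7 and Tlr9 are also known from B cells and plasmacytoid dendritic cells. Of 6 B cell markers only Ighm reached a mean of 1 FPKM, and Ms4a1 was at 0 in every library. The summed level of the 6 was 13.3 to 16.5 FPKM with LPS and 9.59 to 11.1 with ultrasound. Of 8 plasmacytoid dendritic cell markers Tcf4 and Cox6a2 reached a mean of 1 FPKM, Ly6d was at 0 in every library and Siglech was at most 0.011 FPKM. Their summed level was 6.43 to 12.4 FPKM with LPS and 4.93 to 9.24 with ultrasound. In bulk RNA, fewer cells of a type and less RNA per cell cannot be told apart.

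**Figure D3:**
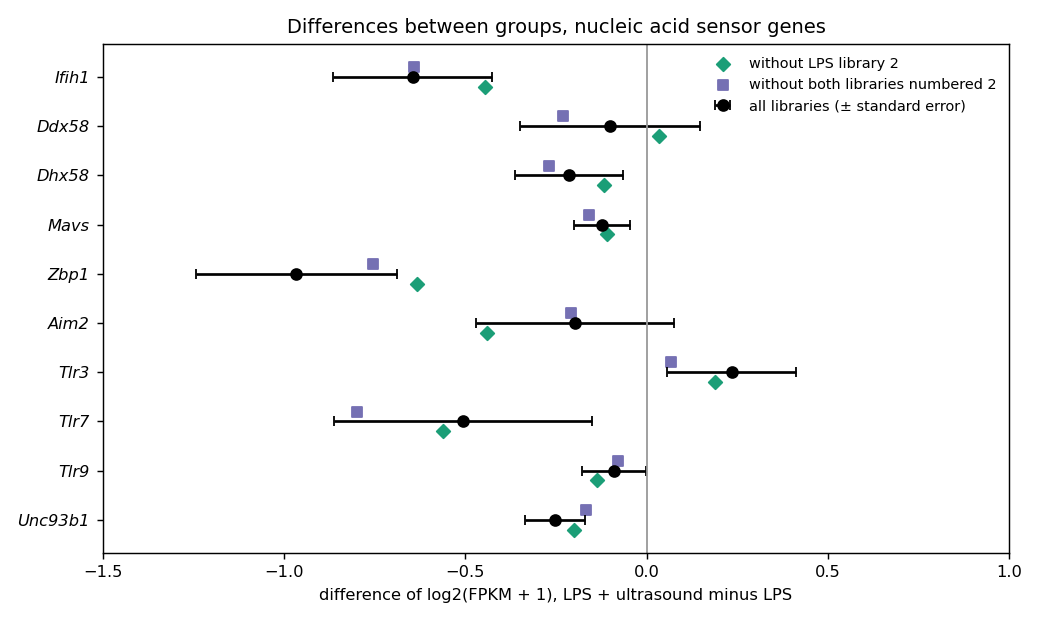
Ultrasound group minus LPS group on the log2(FPKM + 1) scale for each sensor gene, with black points for all 6 libraries (bars, standard error), green diamonds without LPS library 2 and violet squares without both libraries numbered 2. Zbp1 and Ifih1 lie farthest below 0 in the fit of all 6 libraries, and Ddx58 crosses 0 when LPS library 2 is left out.

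Library 2 held the highest values of some sensor genes and the lowest of others, as it did among all genes tested. Ifih1, Ddx58, Dhx58 and Zbp1 were highest in library 2 of both groups, as were 27.6% of all genes tested. Aim2 and Tlr9 were lowest in library 2 of both groups, as were 24.1% of all genes. Tlr7, Tlr3, Ddx58, Dhx58, Ifih1 and Zbp1 had their lowest ultrasound value in library 3, as did 42.0% of all genes.

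The 5 genes whose pattern over the 6 libraries was most like that of Ifih1, among 7219 genes that averaged 5 FPKM or more, were Oit3, C130026I21Rik, Atf6b, Cdc42ep3 and Tcn2. Their Pearson correlations with Ifih1 on log2(FPKM + 1) were 0.994 to 0.999, which is a description over 6 libraries that share the treatment and the library number. Of the 5, Atf6b encodes an endoplasmic reticulum stress transcription factor and Tcn2 the cobalamin carrier transcobalamin. Oit3 was at 6.96, 9.77 and 6.73 FPKM with LPS and at 4.71, 6.70 and 4.51 FPKM with ultrasound, so library 2 was the highest of both groups, as for Ifih1.

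Among 150 related genes in 6 lists of proteins that act beside or below the sensors, 135 averaged 1 FPKM or more. In limma 0 passed the threshold (adjusted p = 0.13 to 1.00 with Benjamini-Hochberg adjustment), against 0.0177% of all genes. With the replicate block 1 of them, Ifit1, fell, against 0.0799% of all genes called lower. Of the 34 measured RIG-I-like receptor signalling genes 18 were lower and 16 higher, with a median log2 difference of -0.0036, where 53.9% of all genes tested were lower. Without overlap between groups 6 of them were lower and 3 higher, against 13.4% and 9.80% of all genes. The 3 with the smallest p were Ddx3x, an RNA helicase gene, Ikbke, which encodes a kinase that activates interferon regulatory factors, and the deubiquitinase gene Cyld. Ddx3x was at 60.9, 42.4 and 47.7 FPKM with LPS and at 72.6, 65.3 and 75.3 FPKM with ultrasound (log2 difference 0.50 ± 0.13). Ikbke was at 27.1, 37.4 and 34.3 FPKM with LPS and at 20.2, 26.1 and 22.4 FPKM with ultrasound (-0.50 ± 0.14). For Ddx3x the ultrasound libraries were all above the LPS libraries, and for Ikbke all below. Cyld had 4.92 ± 0.214 and 3.85 ± 0.185 FPKM (SD, n = 3), again without overlap.

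The endosomal TLR list held genes of trafficking, processing and signalling. Of its 32 measured genes 19 were lower, against 53.9% of all genes, with a median of -0.04. In this list the groups were apart for 4 genes that were lower and 5 higher, against the same 13.4% and 9.80% of all genes. Tlr13, the mouse receptor for bacterial ribosomal RNA, was at 4.28, 3.91 and 4.89 FPKM with LPS and at 6.59, 7.16 and 7.17 FPKM with ultrasound (log2 difference 0.58 ± 0.10, limma with Benjamini-Hochberg adjusted p = 0.13). All ultrasound libraries lay above all LPS libraries, whereas the groups overlapped for Tlr3, Tlr7 and Tlr9. Rab7b, a small GTPase gene of late endosomes, was higher too, at 8.40 ± 1.18 and 12.7 ± 1.10 FPKM, and the signalling kinase gene Irak2 was lower, at 23.2 ± 4.55 and 14.4 ± 0.211 FPKM (SD, n = 3). Neither passed (limma with Benjamini-Hochberg adjusted p = 0.18 and 0.17).

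Of 25 measured cytosolic DNA sensing genes 17 were lower with ultrasound, with a median of -0.17, against 53.9% of all genes lower and a median of -0.02. Without overlap 7 were lower and 1 higher, against 13.4% and 9.80% of all genes. Those with the smallest p were Ifi203, an AIM2-like receptor gene (log2 difference -0.24 ± 0.08), Tmem110 (-0.28 ± 0.11) and the helicase gene Ddx41 (-0.25 ± 0.10), each with all ultrasound libraries below all LPS libraries. Cgas, the gene for the DNA sensor that signals through STING, was named after its values were seen, and its means were 7.69 ± 1.10 and 7.51 ± 0.835 FPKM (SD, n = 3). Reads of Ifi203 and other genes of its family can be shared between similar copies, so that value is uncertain.

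Among the partners of AIM2 and ZBP1, 9 of 14 measured genes were lower, against 53.9% of all genes, with a median of -0.05. Without overlap 1 was lower and 1 higher, against 13.4% and 9.80% of all genes. Cflar, which encodes an inhibitor of caspase-8, was at 99.97, 121 and 99.7 FPKM with LPS and at 78.6, 75.0 and 81.9 FPKM with ultrasound (log2 difference -0.44 ± 0.09, limma with Benjamini-Hochberg adjusted p = 0.18). Each of its ultrasound libraries lay below each LPS library. Gsdmd, the pore-forming executioner of pyroptosis, had 12.8 ± 2.75 and 9.34 ± 1.25 FPKM and the cytokine gene Il18 55.6 ± 10.1 and 43.1 ± 3.99 (SD, n = 3), both with overlapping groups. The gene without overlap in the higher direction was Ripk3, a kinase through which ZBP1 acts, at 54.6 ± 6.47 and 62.6 ± 3.55 FPKM (SD, n = 3), and it is named after its values were seen.

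The list of interferon-induced effectors, which holds RNA-binding proteins beside others such as ISG15, had a median of -0.18. In it 12 of 19 measured genes were lower, against 53.9% of all genes tested. Without overlap 0 were lower and 0 higher, against 13.4% and 9.80% of all genes. Without LPS library 2 the median was 0.02, and without both libraries numbered 2 it was -0.15. Oasl2 and Ifit3, lower in the fit of all 6 libraries, averaged below 1 FPKM in both of these fits. They are absent from those medians, which therefore do not cover the same genes as -0.18. Ifit1, whose product binds RNA with foreign 5′ ends, was at 11.1, 24.3 and 6.62 FPKM with LPS and at 4.68, 12.3 and 2.99 FPKM with ultrasound. Library 2 was the highest and library 3 the lowest of each group, and the groups overlapped. It passed with the replicate block only (adjusted p = 0.035 in limma after Benjamini-Hochberg adjustment, against 0.43 with no block). With both libraries numbered 1, 2 or 3 left out the blocked fit gave limma adjusted p = 0.051, 0.087 and 0.26, so that the call was lost each time. Isg15, the gene for a ubiquitin-like modifier, showed the same order of libraries, at 168, 271 and 150 FPKM with LPS and at 122, 188 and 93.7 FPKM with ultrasound. The antiviral kinase gene Eif2ak2 was higher in 3 of 3 pairs, at 15.3 ± 3.75 and 21.8 ± 4.42 FPKM, and Oasl2 was at 1.56 ± 1.22 and 0.534 ± 0.142 FPKM (SD, n = 3). Ifit1 and Isg15 hold the motif matches printed above, as do Ifih1 and Ddx58. No motif result is given here for Eif2ak2, Oasl2 or the other genes of the list. A link between the motif and the differences was not tested.

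The 4 type I interferon genes of the last list were at or near 0. Ifnb1 was listed at 0.045 FPKM in LPS library 2 and at 0 in the other 5, and Ifna2, Ifna4 and Ifna5 at 0 in all 6. They are named after their values were seen. Of the 11 measured genes of the interferon receptor pathway 8 were lower, with a median of -0.12, and 2 were lower without overlap, against 53.9% lower and 13.4% lower without overlap of all genes. Those were the feedback inhibitor gene Socs3, at 122 ± 5.34 and 88.3 ± 8.03 FPKM, and the transcription factor gene Irf1, at 7.95 ± 0.676 and 5.76 ± 1.09 FPKM (SD, n = 3), neither of which passed (limma with Benjamini-Hochberg adjusted p = 0.15 and 0.25). Ifnar1, a subunit gene of the receptor, had the third smallest p of the list, with 18.8 ± 0.450 and 17.0 ± 1.66 FPKM (SD, n = 3).

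**Figure D4:**
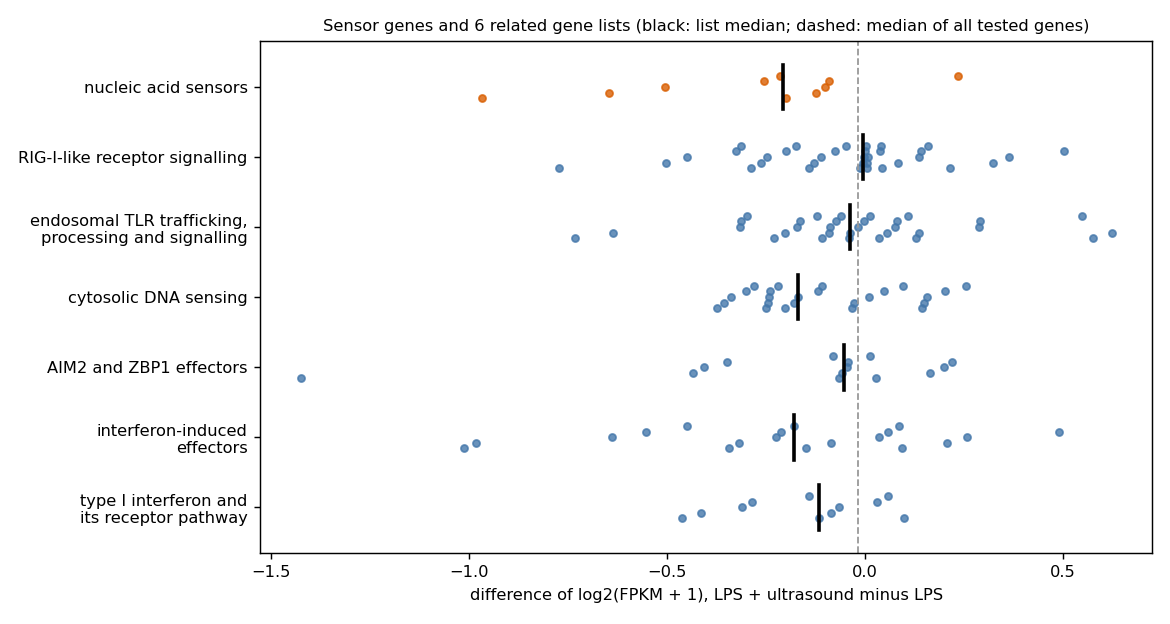
Ultrasound group minus LPS group on the log2(FPKM + 1) scale for each measured gene of the sensor set (orange) and of 6 related lists (blue), with a black bar at each list's median and a dashed line at the median of all genes tested. The median of the sensor genes is -0.21, that of the RIG-I-like receptor signalling genes lies next to the dashed line, and those of the other lists run from -0.18 to -0.04.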

How the data were processed

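The deposited values are FPKM per mouse Ensembl gene, computed by the authors from paired-end reads of poly(A) RNA. For the aligner, the quantifier and the mouse build, the entry is: not given in the sources used here. A rat build (mRatBN 7.2) stands in the submitters' processing notes, and rat muscle in the extraction protocol, but every identifier belongs to mouse. FPKM depends on the library total and on the isoform to which fragments were assigned, and the table holds no counts. Columns were matched to titles by initial and number. Symbols came from a GENCODE M21 table (55154 of 55335 identifiers).

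The 11270 genes that averaged 1 FPKM or more were compared on log2(FPKM + 1) with limma 3.58.1 in R 4.3.3 (variance trend, robust moderation, two-sided, Benjamini-Hochberg over all genes tested, threshold 0.05). The test was checked on simulated data with independent noise, a common spread for all genes and no effect of library number. That check does not cover spreads that differ between genes or libraries that deviate together. Fold differences on this scale understate low genes. Deviations of same-numbered libraries from their group means correlated across genes at 0.18, 0.44 and 0.41, and the block fit rests on this pairing and the titles. Exact permutation tests used scipy 1.17.1. The sensor genes, lists and tests were chosen with earlier results of these data known. The text names all sensor genes and, per list, genes past the threshold in either fit and the 3 with the smallest p, besides those said to be chosen later. Alternatives were the pseudocount, filter, scaling, moderation, sample weights, block and leaving out libraries.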

Additional observations from a re-analysis of the deposited data

How the results depend on the processing

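Each of Ifih1, Dhx58, Mavs, Zbp1, Tlr3, Tlr7, Tlr9 and Unc93b1 kept its direction under every alternative that could be computed, except Tlr7 as given below, and no sensor gene passed limma's threshold except Ifih1 with the replicate block, where the number past it was 1 in place of 0. Ddx58 turned to 0.033 without LPS library 2 and 0.11 without ultrasound library 3 (leaving out 1 library, or both numbered 2, gave -0.36 to 0.11), Aim2 turned to 0.032 without ultrasound library 2 (-0.44 to 0.032), and Tlr7 turned to 0.021 with the block and both libraries numbered 3 left out. The median of the 10 genes was -0.29 to -0.11 when libraries were left out, and -0.12 with the block and no libraries numbered 3. The number of all genes past the threshold was 2, and became 1 with a filter at 5 FPKM, 5 with equal sums, 223 with array weights, 13 with the replicate block and 2 to 8 when libraries were left out. With the block and both libraries numbered 1, 2 or 3 left out it was 16, 0 and 0. These 3 fits were chosen after seeing the data. The causes of these changes were not tested. At a filter of 5 FPKM Tlr3 could not be tested. The 3 libraries per group limit the precision, and no interval for counting error can be given from FPKM.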
